A study of Mus musculus with 15 samples.

Results

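Ventricles of mouse embryos labelled as Atf4 PAS knockouts were compared with ventricles labelled as Atf4 CDS knockouts, 4 libraries against 4, taken by their genotype labels out of 15 libraries. The other 7 libraries, 3 PAS controls and 4 CDS controls, were used to see whether each difference was also present between the lines where neither carried the cardiomyocyte deletion. All embryos were of the C57BL/6 strain at embryonic day 11.5. In the CDS line, loxP sites surround exons 2 and 3 of Atf4 and leave its polyadenylation signal (PAS) in place. In the PAS line, the loxP sites surround that signal instead. Deletion was driven in both lines by Xmlc2-Cre, a Cre recombinase active in cardiomyocytes, so the other cells of the ventricle keep an intact gene and contribute RNA to the same library. The genotype of the controls is given as Control only, and whether they carry loxP sites, Cre or neither is not stated in the labels. The labels conflict on the preparation: the design text names ventricles and a poly(A)-selecting stranded kit, whereas the extraction protocol names cortical neurons and ribosomal RNA depletion.

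Atf4 codes for ATF4, a basic leucine zipper transcription factor of the integrated stress response. When the initiation factor eIF2 is phosphorylated, general translation slows while Atf4 mRNA is translated more, and the protein switches on genes for amino acid synthesis, amino acid transport and tRNA charging. A polyadenylation signal is the short motif that directs cleavage of the nascent transcript and addition of the poly(A) tail, and transcription past a lost signal can run on into the sequence downstream.

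Total gene counts ranged from 23682810 to 29315724 in the PAS knockouts and from 31410559 to 43060454 in the CDS knockouts, so every CDS knockout library was deeper than every PAS knockout library. The controls showed the same order, with 22623499 to 27041436 counts in the PAS line and 30376847 to 46472141 in the CDS line. The tables of each line were counted in a separate run, per the file headers. Line and counting run therefore cannot be told apart in any comparison below. Depth follows the line as well, except in an alternative fit with all libraries thinned to the shallowest. One unnamed gene model, ENSMUSG00000119584, took 3.24% of the counts in CDS knockout 3 and 0.191 to 0.643% in the other 7 knockout libraries. Summed cardiomyocyte markers lay between 31240 and 32440 CPM (normalised counts, scaled for library size) in PAS knockouts and between 28140 and 31150 in CDS knockouts, without overlap. The control sums overlapped, at 30890 to 33090 CPM in the PAS line and 30150 to 32960 CPM in the CDS line. The 10 neuronal markers summed to 43.1 to 46.9 CPM in PAS knockouts and 43.7 to 56.4 CPM in CDS knockouts.

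Atf4 itself differed most clearly between the knockouts. Its polyadenylation signal is shown first because it is the element that separates the designs. Both stretches below are 30 bases from the 3′ ends of GENCODE release 21 transcripts on GRCm38, read 5′ to 3′, with the AATAAA motif in capitals. The Atf4 stretch is chr15:80257505-80257534 on the plus strand, and its motif starts 25 bases before the end of a transcript of 1725 bases. The Rps19bp1 stretch is chr15:80260623-80260652 on the minus strand, and its motif starts 26 bases before the end of a transcript of 838 bases.
Atf4: tgtgtttgctgtAATAAAttattttgtagt
Rps19bp1: gaaattcaaataAATAAAtgtgagtttggg
The search was for AATAAA on the transcript strand within the last 50 bases, where 40.5% of 58797 protein-coding transcripts hold it. The labels do not give the loxP positions, so whether the Atf4 stretch lies between them was not examined.

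Atf4 (ENSMUSG00000042406.9, GRCm39, chromosome 15, 80139385 to 80141742, plus strand) stood at 304, 292, 288 and 259 CPM in the PAS knockouts and at 39.6, 48.1, 45.3 and 45.1 CPM in the CDS knockouts. In the controls it stood at 98.9, 92.2 and 100.1 CPM in the PAS line and at 114, 112, 116 and 115 CPM in the CDS line. The knockout groups lay on opposite sides of both control groups and no 2 groups overlapped. The libraries labelled PAS knockout thus held more Atf4 RNA than their controls, so the groups are named here only as the labels name them. Whether the knockout labels are exchanged between the lines was not tested, and an exchange would turn the direction of every knockout difference below. Whether the labels of whole lines, knockouts and controls together, are exchanged was not tested either. The log2 difference, PAS minus CDS, was 2.68 ± 0.05 (SE, n = 4 and 4) between the knockouts, a 6.42-fold higher level, with an adjusted p of 8.13e-20 (edgeR's quasi-likelihood test, Benjamini-Hochberg adjustment over all genes, here and for every adjusted p below). Between the controls it was -0.24 ± 0.06 (SE, n = 3 and 4), with an adjusted p of 0.107 in edgeR's quasi-likelihood test. The knockout difference minus the control difference was 2.92 ± 0.08 (SE), with an adjusted p of 3.88e-17 in edgeR's quasi-likelihood test. With 1 count per gene, exons and alternative 3′ ends of this RNA were not told apart.

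Rps19bp1, known also as AROS for its activation of the deacetylase SIRT1, is the next gene downstream and is transcribed towards Atf4, with 3.07 kb between the annotated 3′ ends. It stood at 16.1, 16.0, 15.4 and 12.4 CPM in the PAS knockouts and at 8.75, 8.71, 8.48 and 10.3 CPM in the CDS knockouts. The PAS controls stood at 14.4, 13.4 and 13.9 CPM and the CDS controls at 14.6, 13.2, 13.4 and 14.4 CPM. The knockouts did not overlap, whereas the control ranges did. The log2 difference was 0.73 ± 0.09 between the knockouts (SE; adjusted p = 5.46e-05, edgeR's quasi-likelihood test) and 0.00 ± 0.09 between the controls (SE; adjusted p = 0.998). The difference of these differences, 0.73 ± 0.13 (SE), missed the threshold (adjusted p = 0.077, edgeR's quasi-likelihood test). It passed without CDS knockout 4, the highest of its group (0.79, adjusted p = 0.0327), without PAS knockout 4, the lowest of its group (0.81, adjusted p = 0.00455, edgeR's quasi-likelihood test), and in DESeq2 (adjusted p = 0.000501). No strand option was used in counting, so RNA of either strand over its exons is included.

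Cacna1i codes for a T-type voltage-gated calcium channel known from neurons. It starts 29.7 kb past the end of Atf4 on the same strand (80171439 to 80282480). It had 268, 307, 240 and 193 counts in the CDS knockouts and 0, 0, 2 and 3 in the PAS knockouts. The controls had 0, 1, 1 and 3 counts in the CDS line and 0, 0 and 1 in the PAS line. Every CDS knockout thus had at least 193 counts and every other library at most 3. Pooled over libraries the CDS to PAS ratio was 142 between the knockouts, with a 95% exact counting interval from 60.8 to 440, and 2.52 between the controls, with an interval from 0.282 to 119. The intervals cover counting error only. The fitted log2 difference was -7.04 ± 0.34 between the knockouts (SE; adjusted p = 6.43e-12, edgeR's quasi-likelihood test) and -1.13 ± 1.22 between the controls (SE; adjusted p = 0.816). With so few control counts the difference of differences, -5.91 ± 2.47 (SE), was not called (adjusted p = 0.995, edgeR's quasi-likelihood test), while limma-voom gave -6.77 with an adjusted p of 0.0167. The SE here are derived from the test statistic, and for this gene they are rough.

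**Figure D1:**
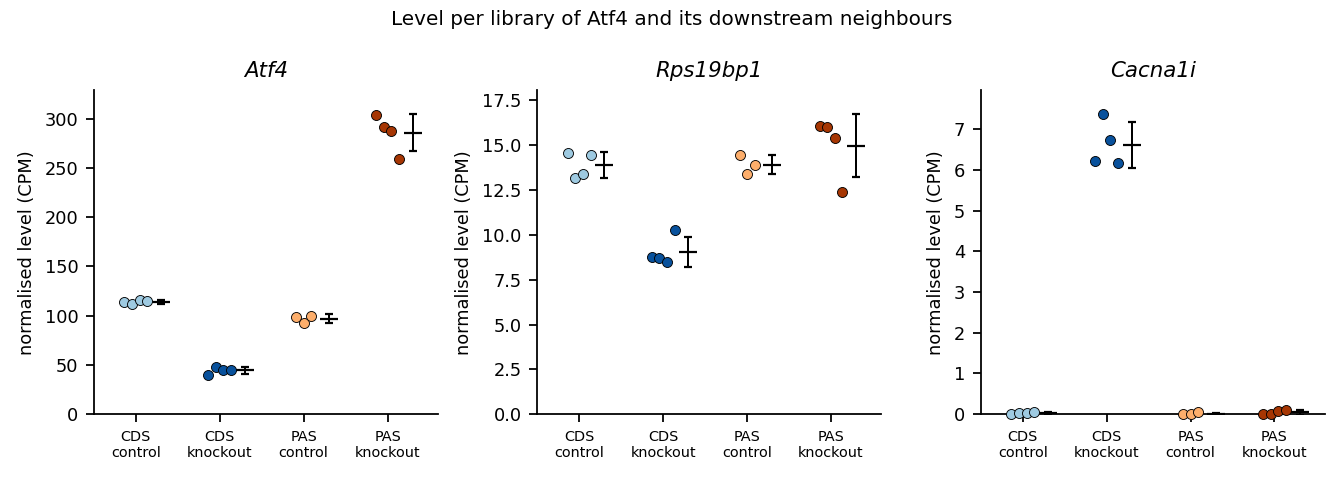
Normalised level (CPM, y axis) of Atf4, Rps19bp1 and Cacna1i in each of the 15 libraries (points) by group (x axis), with the group mean and SD beside the points. Atf4 lies between 259 and 304 CPM in PAS knockouts and between 39.6 and 48.1 CPM in CDS knockouts, and Cacna1i lies at 6.17 CPM or more in CDS knockouts and at 0.102 CPM or less in every other library.

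Of 13 tested genes within 250 kb of Atf4, itself included, 1 more differed between the knockouts. Tab1, an adaptor that activates the kinase TAK1, lies upstream of Atf4 and stood at 48.3, 46.3, 44.2 and 41.7 CPM in the PAS knockouts against 39.2, 39.6, 36.7 and 39.9 CPM in the CDS knockouts. The groups did not overlap, and the control groups did. Its log2 difference was 0.22 ± 0.05 (SE; adjusted p = 0.0302, edgeR's quasi-likelihood test) against 0.05 ± 0.05 in the controls (SE; adjusted p = 0.821). Tab1 lost its call in 7 of the 15 fits that each left out 1 library, with adjusted p up to 0.0964 in edgeR's quasi-likelihood test. Mief1, a mitochondrial fission factor that ends 1.81 kb before Atf4 begins, differed by 0.10 ± 0.04 between the knockouts (SE; adjusted p = 0.321) and by 0.11 ± 0.05 between the controls (SE; adjusted p = 0.45).

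Across the genome, 237 of 20269 tested genes (1.17%) were called between the knockouts, meaning an adjusted p under 0.05 in edgeR's quasi-likelihood test. Of these, 57 (0.281% of those tested) were higher in the PAS knockouts and 180 (0.888%) were lower. DESeq2 called 482 genes, 182 higher and 300 lower, which moves the share of higher calls from 24.1% to 37.8%. The differences were small: 180 of the 237 were below 1.5-fold and 42 reached 2-fold. The count also rested on single libraries. It fell to 65 without PAS knockout 4, 75 without CDS knockout 2, 101 without CDS knockout 4, 108 without PAS knockout 3 and 134 without CDS knockout 3. Among the 51 called genes that the naming rule picked, 15 kept the call in each of the 15 fits without 1 library. These were Atf4, Rps19bp1, Cacna1i, Zfp991, Zfp617, Mir703, AA465934, Rps27, Glrx5, Cox8a, Ndufb3, Hnrnpa2b1, Tardbp, Ndufa2 and Txn1. The other 36 lost it in 1 to 12 of those fits, 35 of them without PAS knockout 4 and 29 without CDS knockout 2.

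Most genes called between the knockouts leaned the same way between the controls. The sign of the control difference was the same for 230 of the 237 (97.1%), against 61.3% of all tested genes. It matched for 53 of the 57 genes that were higher in PAS knockouts and for 177 of the 180 that were lower. For 150 genes (63.3%) the control difference was at least 50% of the knockout difference. The median log2 difference of the higher genes was 0.21 between knockouts and 0.12 between controls, and that of the lower genes was -0.27 and -0.19. Over all tested genes both medians were 0.004. Choosing genes by the knockout test tends to enlarge their knockout differences but not their control differences. The smaller control medians and the 63.3% therefore do not show that the lines differed more in the knockouts. Across the 237 genes the differences of knockouts and controls had a Pearson r of 0.78 and a Spearman rho of 0.84, against 0.61 and 0.47 across the 9927 genes of at least 10 CPM and 0.28 and 0.24 across all 20269. These correlations are across genes, which are not independent replicates. The knockout and control differences share no library, but each line's libraries share a depth range and a counting run.

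Between the controls, 29 genes (0.143% of those tested) were called by edgeR's quasi-likelihood test, 7 higher (0.0345%) and 22 lower (0.109%) in the PAS line. Of these, 20 were among the 237 and differed in the same direction, 18 lower and 2 higher in the PAS line. The count of shared calls fell to 12 without PAS control 1 and rose to 32 without CDS control 4. The test of the difference of differences called 1 gene (0.00493%), higher in the PAS line, which was Atf4. DESeq2 and limma-voom each called 2. At an unadjusted p under 0.05, 843 genes differed in that test, 4.16% of those tested. The other 216 genes called between the knockouts were called neither between the controls nor as unequal, so for them the data do not decide whether the controls differ equally. The 4 knockout libraries of each line did not overlap for 235 of the 237 genes, against 1795 of all tested genes (8.86%). The 237 were chosen by a test on these same libraries, so this share largely follows from the choice and is no separate support. The controls did not overlap in the same direction for 124 of the 237, against 1917 tested genes (9.46%) that separated in either direction.

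**Figure D2:**
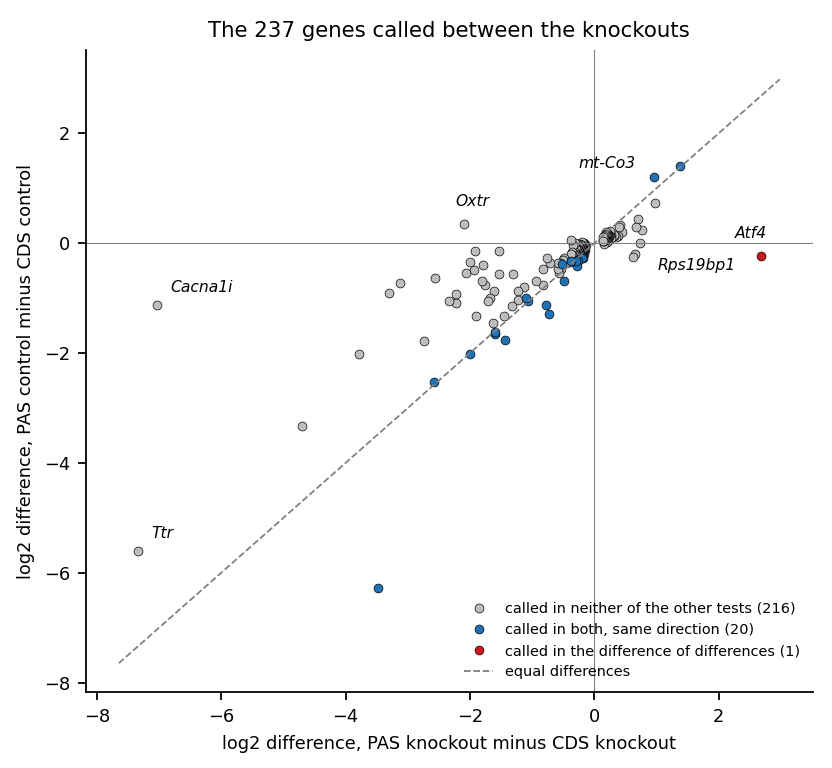
Log2 difference between the PAS and CDS controls (y axis) against that between the PAS and CDS knockouts (x axis) for the 237 called genes (points), with equal differences as a dashed line. Of these, 230 have the same sign on both axes, 20 were also called in the controls (blue), and Atf4 (red) was called in the difference of differences.

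The control difference had the opposite sign for 7 called genes. Beside Atf4 these were Mtor, Sdr39u1 and the pseudogene AC151284.2, higher in PAS knockouts, and Rpl39, Fgfr3 and Oxtr, lower. They are named because of this sign, after their values were seen. Mtor codes for the kinase at the centre of nutrient sensing and growth control. It stood at 113, 108.5, 120.0 and 116 CPM in the PAS knockouts and at 102.5, 102.1, 99.6 and 105 CPM in the CDS knockouts, and its log2 difference was 0.16 ± 0.04 (SE; adjusted p = 0.0415, edgeR's quasi-likelihood test) against -0.01 in the controls. Fgfr3, a fibroblast growth factor receptor, stood at 11.1, 9.10, 9.70 and 11.5 CPM in the PAS knockouts and at 12.2, 14.5, 13.9 and 13.3 CPM in the CDS knockouts, a log2 difference of -0.38 ± 0.08 (SE; adjusted p = 0.0284) against 0.06 in the controls. Oxtr, the oxytocin receptor, lay below 0.4 CPM in every library. The difference of differences was not called for any of the 6 beside Atf4 (adjusted p = 0.995 for each in edgeR's quasi-likelihood test), at unadjusted p from 0.000597 for Sdr39u1 to 0.00721 for Rpl39.

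Genes of the cytosolic ribosome and of the respiratory chain were among the 180 lower in the PAS knockouts. Among genes with a ribosomal protein symbol, 15 of 81 (18.5%) were lower and 1, Rpl23a, was higher, against 0.888% lower over all genes. Among genes with a symbol of the respiratory chain or ATP synthase, 18 of 93 (19.4%) were lower. Among mitochondrial ribosomal protein symbols, 3 of 77 (3.9%) were lower. These families were picked by symbol after the called genes were seen. Controls leaned the same way for 14 of the 15 ribosomal and for all 18 respiratory genes, and called 1 and 4 of them. The median log2 difference was -0.08 between knockouts and -0.04 between controls for the ribosomal genes, and -0.09 and -0.13 for the respiratory genes. In the separate list of 30 cytosolic ribosomal protein genes, 2 were lower between knockouts and 0 were called between controls. The medians of that list were -0.08 and -0.03.

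Rps27 codes for a protein of the small ribosomal subunit (chromosome 3, 90119829 to 90120958, minus strand). It stood at 198, 176, 192 and 193 CPM in the PAS knockouts and at 264, 289, 279 and 253 CPM in the CDS knockouts. The PAS controls stood at 199.8, 215 and 203 CPM and the CDS controls at 283, 273, 261 and 257 CPM. Every PAS line library was below every CDS line library, knockouts and controls alike. The log2 difference was -0.51 ± 0.05 between knockouts (SE; adjusted p = 1.14e-06, edgeR's quasi-likelihood test) and -0.38 ± 0.05 between controls (SE; adjusted p = 0.000954). Rplp1, of the ribosomal stalk, had a log2 difference of -0.34 ± 0.06 (SE; adjusted p = 0.00948, edgeR's quasi-likelihood test), with -0.25 in the controls (adjusted p = 0.174). Without PAS knockout 4 its adjusted p was 0.0522 in edgeR's quasi-likelihood test. Rps29 (-0.39 against -0.34 in controls), Rps28 (-0.30 against -0.27) and Rps16 (-0.24 against -0.18) were also lower between knockouts and were not called between controls. Ribosomal protein genes have many near-identical processed copies, so counts of single members are uncertain.

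Cox8a, a nuclear-encoded subunit of cytochrome c oxidase, stood at 256, 269, 259 and 248 CPM in the PAS knockouts and at 323, 317, 302 and 319 CPM in the CDS knockouts. Controls of the PAS line stood at 244, 259 and 269 CPM and the CDS controls at 341, 347, 300.3 and 299 CPM. The lines did not overlap in either comparison. The log2 difference was -0.29 ± 0.05 between knockouts (SE; adjusted p = 0.00461, edgeR's quasi-likelihood test) and -0.32 ± 0.05 between controls (SE; adjusted p = 0.00617). Ndufb3, a subunit of complex I, behaved alike, at 41.5, 43.6, 42.0 and 40.9 CPM in PAS knockouts and 51.1, 49.7, 50.1 and 50.7 CPM in CDS knockouts, with log2 differences of -0.26 in knockouts (adjusted p = 0.00544) and -0.32 in controls (adjusted p = 0.00432, edgeR's quasi-likelihood test). Ndufa4 (-0.19 and -0.27) and Uqcrb (-0.18 and -0.27) were called in both comparisons as well. Atp5g3, which codes for the membrane ring of ATP synthase, was lower between knockouts, at -0.25, and was not called between controls, at -0.18. In the list of 32 nuclear respiratory chain genes, 7 were lower between knockouts and 4 were called between controls, with list medians of -0.03 and -0.10. Glrx5, which serves iron-sulfur cluster assembly in mitochondria, and Cenpw, of the inner kinetochore, complete the named protein-coding genes called lower in both comparisons (-0.38 and -0.32 for Glrx5, -0.28 and -0.42 for Cenpw). Without CDS knockout 1, 2 or 4 or PAS knockout 2, 3 or 4, Cenpw and Ndufa4 lost the knockout call, with adjusted p up to 0.128 and 0.137 in edgeR's quasi-likelihood test. Ndufa4 lost it also without CDS knockout 3, PAS knockout 1, CDS control 1 or PAS control 1.

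Short genes were lower in the PAS line in both comparisons. Among genes with a mean of at least 10 CPM, split into 4 equal sets by exon length, 2.88% of the shortest set were called lower between knockouts, then 1.07%, 0.907% and 0.165% of the longer sets. The called lower protein-coding genes had a median exon length of 2697 bases, the called higher ones 5685 and all tested ones 4491. Over 10 sets ordered by exon length the median log2 difference between knockouts went from -0.04 in the shortest to 0.04 in the longest, and that between controls from -0.05 to 0.02. Both slopes are small beside the spread of single genes within a set. With a correction for exon length, chosen after this pattern was seen, 232 genes were called, 69 higher and 163 lower, and 180 of the original calls were kept. The ribosomal and respiratory symbols have median exon lengths of 1781 and 1675 bases. The share of this pattern in their differences was not tested beyond that fit. There Ndufb3 (-0.16, adjusted p = 0.079), Ndufa4 (-0.14, adjusted p = 0.085) and Cox7b (-0.12, adjusted p = 0.117) lost their calls in edgeR's quasi-likelihood test. Cox8a kept its call at a smaller difference, -0.17 in place of -0.29 (adjusted p = 0.043), as did Rplp1, -0.20 in place of -0.34 (adjusted p = 0.0472, edgeR's quasi-likelihood test).

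**Figure D3:**
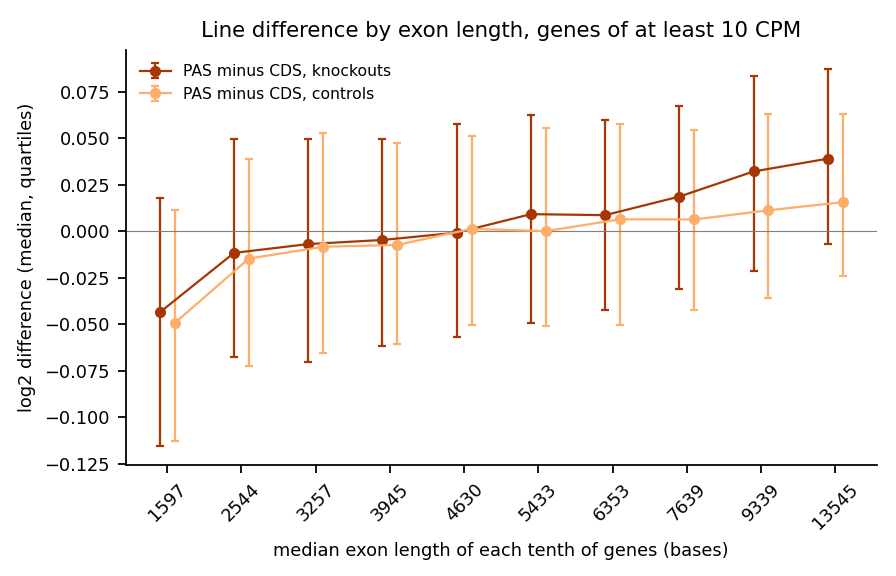
Median log2 difference between the lines (y axis, with quartiles as bars) for 10 equal sets of genes ordered by exon length (x axis, median length in bases), in knockouts and in controls, over genes of at least 10 CPM. The medians go from -0.04 to 0.04 in the knockouts and from -0.05 to 0.02 in the controls.

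Pseudogenes, which are mostly processed copies of other genes' messages, had a higher share of calls than the 1.17% over all genes. Of 680 tested, 38 (5.59%) were called between knockouts, 35 lower and 3 higher in the PAS line, and 37 had the same sign in the controls. They and models without a name made up 12 of the 20 genes called in both comparisons. Gm6477 differed by -2.58 between knockouts and by -2.52 between controls on the log2 scale, H3f3a-ps1 by -1.59 and -1.66, and Rpl18-ps2 by 1.38 and 1.40. These 3 were chosen after their values were seen. The differences of these 3 were near equal in both comparisons. Not all pseudogenes called in both were so alike, as Gm14046 (-3.48 and -6.28) and Gm7862 (-0.72 and -1.29) show. Of the 38 called pseudogenes, 16 lay below 1 CPM in both knockout groups. A read pair that fits both a copy and its parent could be counted at either. By chromosome, the X chromosome had 17 of 642 tested genes called (2.65%), 14 of them lower, and chromosome 15, which carries Atf4, 13 of 782 (1.66%).

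Genes of RNA processing were also among the abundant genes that were lower. Tardbp, which codes for the splicing regulator TDP-43, stood at 344, 334, 326 and 322 CPM in the PAS knockouts and at 383, 402, 386 and 404 CPM in the CDS knockouts. In the controls, the PAS line stood at 349, 359 and 365 CPM and the CDS controls at 378, 368, 380.1 and 384 CPM, so the controls also did not overlap, by a narrower gap. Its log2 difference was -0.25 ± 0.04 between knockouts (SE; adjusted p = 0.000812, edgeR's quasi-likelihood test) and -0.08 ± 0.04 between controls (SE; adjusted p = 0.542). Hnrnpa2b1, an RNA-binding protein of splicing and RNA transport, was lower, at -0.22 ± 0.04 (SE; adjusted p = 0.00544, edgeR's quasi-likelihood test) against -0.12 in the controls. Mir703 is annotated as a microRNA precursor on chromosome 5, and its mature sequence in RefSeq (GRCm38.p6, chr5:98475616-98475636, minus strand) is printed because it is the only microRNA named, with the seed, bases 2 to 8, in capitals.
mmu-miR-703: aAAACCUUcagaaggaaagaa
Its locus stood at 2.34, 1.92, 2.46 and 3.35 CPM in the PAS knockouts and at 4.89, 5.86, 6.62 and 4.66 CPM in the CDS knockouts. The log2 difference was -1.13 ± 0.16 between knockouts (SE; adjusted p = 0.000812, edgeR's quasi-likelihood test) and -0.79 ± 0.18 between controls (SE; adjusted p = 0.0808). Libraries of long RNA do not measure mature microRNA, so these counts are of RNA over the precursor's 109 bases.

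Nppb, the B-type natriuretic peptide gene of trabecular myocardium, stood at 120.3, 116, 148.5 and 119 CPM in the PAS knockouts and at 160, 198, 185 and 207 CPM in the CDS knockouts. Among controls, the PAS line stood at 133, 135 and 117 CPM and the CDS controls at 160, 218, 184 and 184 CPM. Neither the knockouts nor the controls of the lines overlapped. The log2 difference was -0.58 ± 0.11 between knockouts (SE; adjusted p = 0.0308, edgeR's quasi-likelihood test) and -0.54 ± 0.12 between controls (SE; adjusted p = 0.154). The knockout call was lost without CDS knockout 2, 3 or 4 or PAS knockout 1, 2 or 4 (adjusted p up to 0.111), and with the correction for exon length (adjusted p = 0.0766, edgeR's quasi-likelihood test). Of the 10 trabecular genes Nppb alone was called, and the list's median was 0.04 between knockouts and -0.09 between controls. Cebpb, a leucine zipper partner of ATF4 in the stress response, was lower, at -0.58 against -0.47 in the controls, and lost its call in 11 of the 15 fits without 1 library (adjusted p up to 0.116, edgeR's quasi-likelihood test). Ccl2, a chemokine that attracts monocytes, was lower, at -0.83 against -0.47, and lost its call in 7 of those fits (adjusted p up to 0.117, edgeR's quasi-likelihood test).

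A few genes of mitosis and DNA replication were higher in the PAS knockouts. Of 18 mitosis genes, 4 were called higher, against 0.281% of all genes, and 17 had a positive difference, against 51.2% of all genes, with a list median of 0.11 between knockouts and 0.04 between controls. Mki67, the proliferation marker Ki-67, stood at 678, 701, 718 and 701 CPM in the PAS knockouts and at 621, 626, 592 and 588 CPM in the CDS knockouts. Controls stood at 713, 702 and 696 CPM in the PAS line and at 603, 609, 642 and 669 CPM in the CDS line, without overlap. Its log2 difference was 0.21 ± 0.04 between knockouts (SE; adjusted p = 0.0113, edgeR's quasi-likelihood test) and 0.16 ± 0.04 between controls (SE; adjusted p = 0.174). Its call was lost without CDS knockout 4, PAS knockout 3 or PAS knockout 4 (adjusted p up to 0.0567, edgeR's quasi-likelihood test). The kinetochore genes Cenpf (0.23 against 0.13 in controls) and Cenpe (0.19 against 0.10) and the cytokinesis kinesin Kif20a (0.19 against 0.06) were the others. Of 18 DNA replication genes, Pole, the catalytic subunit of DNA polymerase epsilon, was the 1 called (0.19 against 0.16), and the list medians were 0.06 and 0.03. The summed CPM of the mitosis list ran from 3249 to 3388 in PAS knockouts and from 2850 to 3111 in CDS knockouts, and from 3214 to 3316 and 3011 to 3152 in the controls. In a whole ventricle, more cells of a kind and more RNA per cell cannot be told apart, for these genes and for every other one here.

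Among the other genes that were higher in PAS knockouts, 2 zinc finger genes kept their call in every fit without 1 library. Zfp991 stood at 6.57, 6.36, 6.99 and 6.52 CPM in the PAS knockouts and at 4.40, 3.62, 3.87 and 4.82 CPM in the CDS knockouts, a log2 difference of 0.66 ± 0.11 (SE; adjusted p = 0.0047, edgeR's quasi-likelihood test) against 0.29 ± 0.12 in the controls (SE; adjusted p = 0.443). Zfp617 stood at 34.5, 37.9, 38.5 and 38.0 CPM against 30.6, 30.0, 27.8 and 30.4 CPM, a log2 difference of 0.32 ± 0.05 (SE; adjusted p = 0.00115) against 0.14 ± 0.05 in the controls (SE; adjusted p = 0.375). For both genes the controls also did not overlap, with the PAS line higher. Gapdh, the glycolytic enzyme often used as a reference gene, was higher by 0.22 between knockouts (3778, 3943, 3931 and 3676 CPM against 3540, 3166, 3042 and 3446 CPM) and differed by 0.09 between the overlapping controls. It lost its call in 9 of the 15 fits without 1 library (adjusted p up to 0.173, edgeR's quasi-likelihood test). Hsp90aa1, a cytosolic chaperone, and Cdh2, the N-cadherin of cardiomyocyte junctions, were higher by 0.20 and 0.18, against 0.15 and 0.07 in the controls. Their calls were lost in 3 and 6 of those fits, without CDS knockout 2 and without PAS knockout 4 among them (adjusted p up to 0.102 and 0.0951, edgeR's quasi-likelihood test). mt-Co3, a cytochrome c oxidase subunit of the mitochondrial genome, was called higher in both comparisons, at 0.97 and 1.21, from 34 to 77 counts in each knockout library. Copies of mitochondrial sequence exist in the nuclear genome, so the counts placed on this gene are uncertain. Without PAS knockout 4 its adjusted p was 0.0514 in edgeR's quasi-likelihood test. Of the 13 listed protein genes of the mitochondrial genome, mt-Co3 alone was called. In this list 0 genes had a negative difference between knockouts and 7 had one between controls, with medians of 0.22 and -0.05. The list was not tested as a set. The level of mt-Co3 is not typical of the list: mt-Co1 averaged 13960 CPM over all libraries, and mt-Co3 2.47 CPM in the PAS knockouts. It was not alone in this, as mt-Co2 averaged 1.74 CPM over all libraries.

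**Figure D4:**
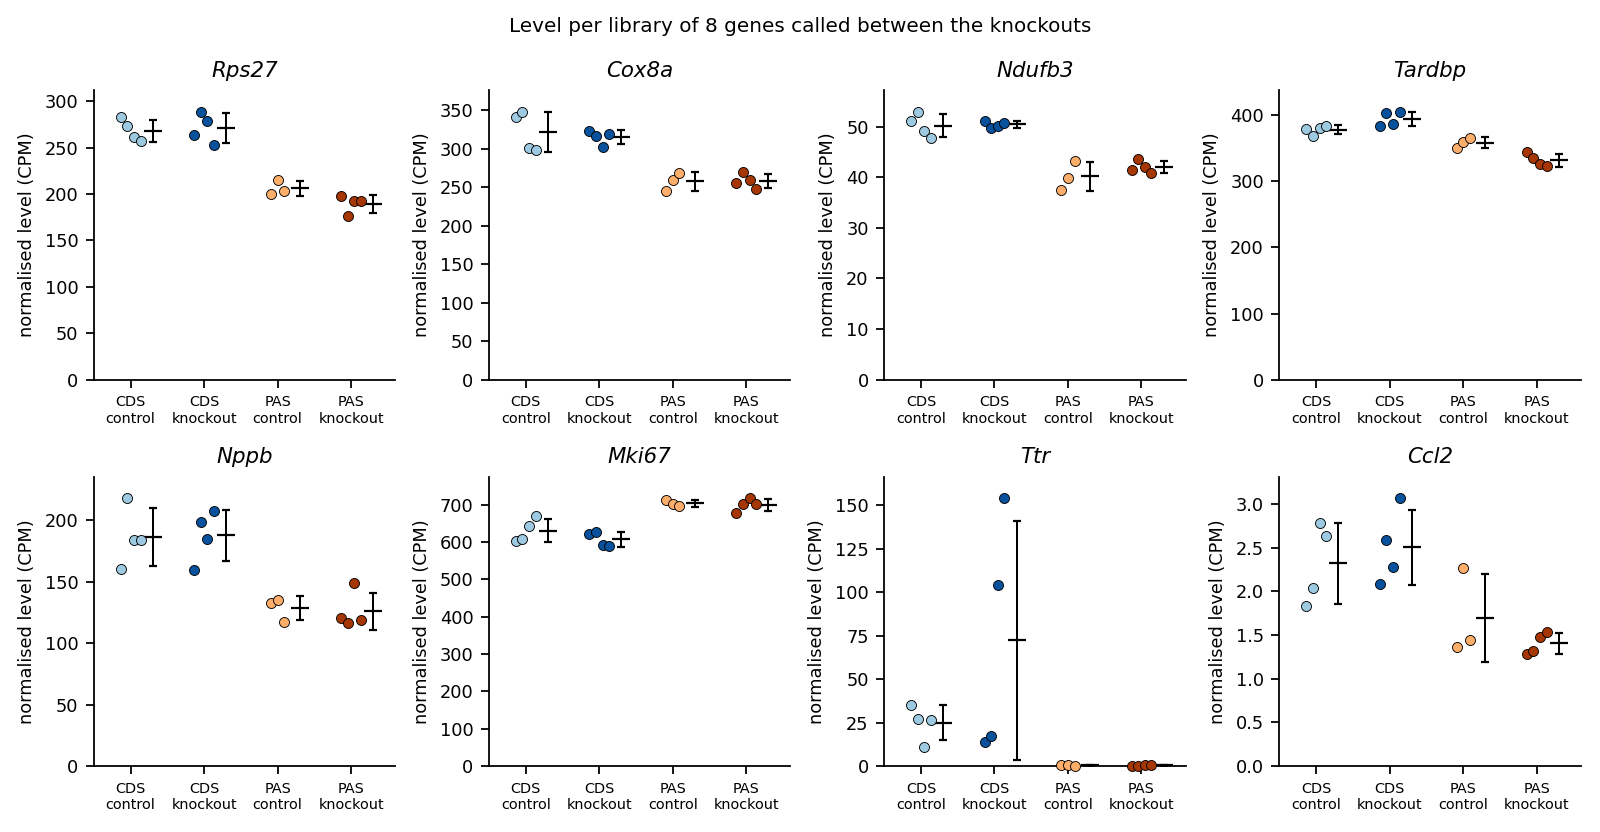
Normalised level (CPM, y axes from 0) of 8 called genes in each library (points) by group (x axes), with group mean and SD beside the points. Rps27, Cox8a, Ndufb3, Tardbp, Nppb and Ttr are lower, and Mki67 higher, in both PAS groups without overlap, whereas the control groups overlap for Ccl2.

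Genes of the choroid plexus, the epithelium that makes cerebrospinal fluid, gave some of the largest differences. Ttr, the thyroid hormone carrier transthyretin, stood at 0.302, 0.355, 0.55 and 0.546 CPM in the PAS knockouts and at 13.8, 17.6, 104 and 154 CPM in the CDS knockouts. The PAS controls stood at 0.516, 0.743 and 0.263 CPM and the CDS controls at 35.2, 27.2, 11.2 and 26.6 CPM. All CDS line libraries were above all PAS line libraries, and CDS knockouts 3 and 4 were the highest. The log2 difference was -7.35 ± 1.17 between knockouts (SE; adjusted p = 0.0144, edgeR's quasi-likelihood test) and -5.61 ± 1.41 between controls (SE; adjusted p = 0.204). Without CDS knockouts 3 and 4 together it was -5.15 (adjusted p = 0.00495), and the call was lost without PAS knockout 3 (adjusted p = 0.0515) or PAS knockout 4 (adjusted p = 0.0632, edgeR's quasi-likelihood test). Enpp2, which makes lysophosphatidic acid, followed the same libraries, at 0.720 to 1.40 CPM in PAS knockouts and 5.88, 7.94, 43.5 and 64.2 CPM in CDS knockouts. Its PAS controls lay at 0.786 to 1.49 CPM and its CDS controls at 6.16 to 16.4 CPM, without overlap, and the log2 differences were -4.70 between knockouts and -3.34 between controls (adjusted p = 0.311, edgeR's quasi-likelihood test). Kl, the co-receptor Klotho, stood at 0.0847 to 0.604 and at 0.903, 1.22, 3.09 and 4.47 CPM. For Kl the controls overlapped, at 0.218 to 1.05 CPM in the PAS line and 0.653 to 1.26 CPM in the CDS line, and the log2 differences were -3.13 and -0.72 (adjusted p = 0.804 between controls, edgeR's quasi-likelihood test). Enpp2 and Kl lost their calls in 6 and 12 of the 15 fits without 1 library (adjusted p up to 0.111 and 0.148, edgeR's quasi-likelihood test), and limma-voom called none of the 7 tested markers. The 7 tested choroid plexus markers summed to 7.18 to 9.65 CPM in PAS knockouts and 26.3 to 235 CPM in CDS knockouts, and to 7.36 to 9.65 and 24.2 to 59.9 CPM in the controls. Whether cells from outside the ventricle have a part in these differences, or in any other, was not tested. Without CDS knockouts 3 and 4 together, which leaves 2 libraries in that group, 46 genes were called, 41 of them among the 237.

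Lists of genes that ATF4 is known to drive were looked at next, since Atf4 RNA differed 6.42-fold. Of 20 aminoacyl-tRNA synthetases, 18 genes of amino acid and one-carbon synthesis and 12 amino acid transporters, 0 passed edgeR's quasi-likelihood test. With 1.17% called over all genes, lists of this size would hold few calls in any case, so nothing is read from the 0. At an unadjusted p under 0.05, which 13.5% of all tested genes had, they gave 4, 1 and 2 genes. DESeq2 called 1 synthetase, limma-voom called 0, and edgeR without a filter on low counts called 1 transporter, Slc38a2 (-0.15, adjusted p = 0.0255). The list medians were 0.05, 0.01 and -0.12 between knockouts and -0.01, -0.01 and -0.02 between controls. Eprs, which charges glutamate and proline tRNAs, stood at 248 ± 8.08 CPM in PAS knockouts and 235 ± 6.77 CPM in CDS knockouts (SD, n = 4 each), a log2 difference of 0.08 ± 0.04 (SE; adjusted p = 0.356). Shmt2, a mitochondrial enzyme of serine and one-carbon metabolism, stood at 88.9 ± 9.37 and 80.6 ± 4.04 CPM, and Slc38a2, an amino acid transporter, at 395 ± 22.1 and 434 ± 11.4 CPM (SD, n = 4 each). An adjusted p above the threshold does not show that these levels are equal. Of 18 stress response regulators Cebpb alone was called. Of these 18, 16 had a negative difference between knockouts and 8 between controls, with list medians of -0.12 and 0.01. Of all tested genes, 51.2% had a positive difference between knockouts, and the list was not tested as a set. Of 30 p53 targets Bax alone was called, a pore-forming protein of apoptosis that was lower, at -0.29 against -0.08 in the controls. Without CDS knockout 2 or PAS knockout 4, among others, Bax lost its call (adjusted p up to 0.163, edgeR's quasi-likelihood test).

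The lists of heart muscle genes gave a similar count. Of 25 sarcomere genes, 17 cardiac transcription factors, 8 compact layer genes and 7 cardiomyocyte markers, 0 passed edgeR's quasi-likelihood test between the knockouts, which is again too near the 1.17% over all genes to be read as a result about these lists. At an unadjusted p under 0.05 (13.5% of all genes) they gave 5, 2, 0 and 2 genes, DESeq2 called 1 sarcomere gene, and limma-voom called 0. Without a filter on low counts, edgeR called 4 sarcomere genes and 1 cardiomyocyte marker. Outside these lists, the cardiac genes Nppb and Cdh2 described above were called, and so was Myh7b, a cardiac myosin heavy chain chosen after its values were seen, at -0.27 between knockouts (adjusted p = 0.014, edgeR's quasi-likelihood test) and -0.14 between controls. Gata4, a transcription factor of heart development, stood at 329 ± 13.9 CPM in PAS knockouts and 334 ± 16.2 CPM in CDS knockouts (SD, n = 4 each). Myh7, a heavy chain of cardiac myosin, stood at 6742 ± 228 and 5952 ± 513 CPM (SD, n = 4 each), a log2 difference of 0.18 ± 0.06 (SE; adjusted p = 0.14, edgeR's quasi-likelihood test) that was called without the filter on low counts (0.16, adjusted p = 0.00191). Among other cell types, Egfl7 of 14 endothelial genes was called lower (-0.20 against -0.11 in controls). Of the epicardial, cushion, atrial, outflow tract, leukocyte, neuronal and erythroid genes, edgeR's quasi-likelihood test and limma-voom called 0 and DESeq2 called 1, an atrial gene, as did edgeR without a filter on low counts. At an unadjusted p under 0.05, against 13.5% of all genes, those lists gave 3, 1, 1, 2, 0, 1 and 0 genes. Egfl7 lost its call in 10 of the 15 fits without 1 library (adjusted p up to 0.204, edgeR's quasi-likelihood test). The erythroid list had a median of -0.58 between knockouts and -0.12 between controls, with sums from 1225 to 2416 CPM in PAS knockouts and 1699 to 4597 CPM in CDS knockouts that overlapped. The 14 tested histone genes whose messages lack a poly(A) tail had a median of -0.31 between knockouts and 0.04 between controls, with overlapping sums of 24.1 to 30.7 and 24.8 to 29.8 CPM.

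**Figure D5:**
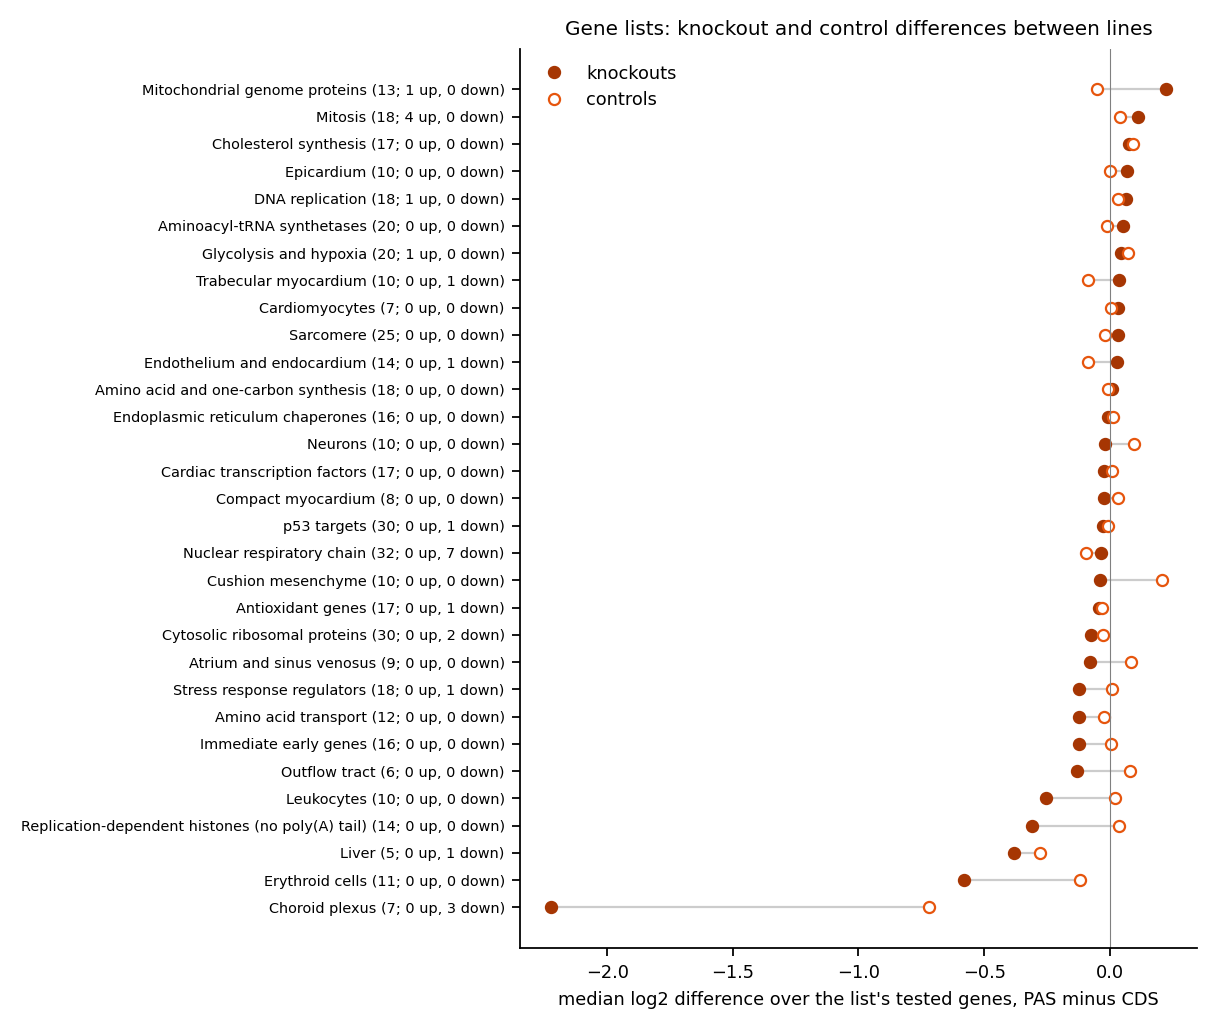
Median log2 difference between the lines (x axis, PAS minus CDS) over the tested genes of each list (y axis), between knockouts (filled) and between controls (open), with the number tested and the numbers called higher and lower between knockouts in brackets. The choroid plexus list lies lowest, at -2.22 between knockouts and -0.72 between controls.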

How the data were processed

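RNA of 15 ventricle libraries was analysed. Per the file headers, the authors counted read pairs over exons of GENCODE release 37 (GRCm39) with featureCounts 2.1.1, without a strand option, and the deposited values are raw counts. STAR 2.7.11b, HISAT2 2.2.1, DESeq2, FastQC and fastp, and the builds GRCm38 and GRCm39, appear in the submitters' processing notes without roles, so which aligner made these counts is not given in the sources used here. Gene names came from GENCODE release 21 by identifier and matched 51536 of 78317 genes, which held 98.9% of all counts. No strand option and no separation of near-identical copies means that antisense partners, pseudogenes and their parents can exchange counts.

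Genes were kept by filterByExpr (minimum count 10) and fitted together in edgeR 4.0.16 (R 4.3.3) with TMM scaling, 1 mean per group, robust quasi-likelihood dispersions and 11 residual degrees of freedom. PAS minus CDS was tested between knockouts, between controls, and as the difference of these. Calls needed a Benjamini-Hochberg adjusted p under 0.05. Standard errors (SE) of log2 differences were derived from the test, as the size of the difference divided by the square root of its F statistic. They are approximate. For Cacna1i, with few control counts, they do not combine as independent standard errors would. Genes called between knockouts were sorted by whether the control contrast or the difference of differences was also called. The procedure was tested on simulated data. Alternatives used DESeq2 1.42.0, limma 3.58.1 (voom), other scaling and filters, thinned counts, a replicate block and libraries left out.

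Named genes were Atf4 and tested genes within 250 kb; called genes of at least 1 CPM without overlap with the 12 highest and 12 lowest differences, and up to 6 in each direction among those shared with the controls or unequal; the 6 most abundant called in each direction; and up to 3 called, or else the 2 most abundant, of each list. Of the called genes, 51 unnamed models, pseudogenes or Y-linked genes were left out of this naming, and 50 of them had the same sign in the controls. Genes named outside this rule (Rps28, Rps29, Rpl23a, Uqcrb, Cenpe, Mtor, Fgfr3, Oxtr, Rpl39, Myh7b, AC151284.2, Gm6477, H3f3a-ps1, Rpl18-ps2, Gm14046, Gm7862) were chosen after their values were seen. The members and lists were chosen with earlier results of these data known. The design text states biological replicates. Replicates differed by more than counting noise in every pair. Some named genes are not reported here.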

Additional observations from a re-analysis of the deposited data

Results flagged for a closer look

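In 279 groups of 4 libraries, 17 (6.09%) held a value that stood apart from the other 3 by more than Dixon's critical gap at the 95% level. Chance gives about 1 in 20. Of genes called between the knockouts, Rps19bp1 stood at 10.3 CPM in CDS knockout 4 (others 8.48 to 8.75), Ubxn6 at 9.6 CPM in CDS knockout 3, Egfl7 at 91.0 CPM in CDS knockout 2, Zfp617 at 34.5 CPM in PAS knockout 1, Cebpb at 3.24 CPM in PAS knockout 4 and Nppb at 148.5 CPM in PAS knockout 3 (others 116 to 120.3). Their controls gave Zfp991 at 3.86 CPM in CDS control 1, Rps27rt at 1.51 CPM in CDS control 4 and Hsp90aa1 at 552 CPM in CDS control 2. Of genes not called, Pdgfb stood at 9.95 CPM in PAS knockout 2, ENSMUSG00000120755.2 at 0.169 CPM in PAS knockout 3, Shmt2 at 74.6 CPM in CDS knockout 3 and Slc38a2 at 417 CPM in CDS knockout 1. Hist1h2bc stood at 8.64 CPM and Lyz2 at 24.7 CPM in PAS knockout 2, Hba-x at 744 CPM in PAS knockout 1 and Csf1r at 13.7 CPM in CDS control 2. The difference of differences for Atf4 was 2.92 on the log2 scale and was the 1 such test called.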

How the results depend on the processing

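Numbers of called genes moved with the settings. Without a filter on low counts, 500 genes were called between knockouts, 201 between controls, 3 in the difference of differences and 90 in both comparisons in the same direction, against 237, 29, 1 and 20. DESeq2 called 482, 101, 2 and 59. When a fold of at least 1.5 was required, 7, 2 and, in both comparisons, 2 remained. With only the groups compared in the fit, the controls gave 10 calls and the shared calls were 7. limma-voom and the fit corrected for exon length each gave 2 calls in the difference of differences. Without CDS knockouts 3 and 4 together, 46 were called between knockouts. Leaving out 1 library at a time gave 65 to 306 calls between knockouts, 15 to 43 between controls, 1 to 2 in the difference of differences and 12 to 32 shared. The cause was not tested. DESeq2 size factors, thinning to the shallowest library (192) and removal of haemoglobin, mitochondrial and ENSMUSG00000119584 counts (232) kept the knockout count within 1.5 times. Of the 192 genes called after thinning, 162 were among the 237. Same-numbered libraries did not deviate together in the knockouts (correlations of -0.31, 0.03, -0.13 and -0.02) and not in every pair of controls (0.15, -0.35 and 0.27, where control 3 alone correlated best with its own number), and with the replicate block 158 genes were called between knockouts, 150 of them among the 237, 23 between controls and 17 in both. All 51 named called genes kept their sign in the 26 alternative fits, and Atf4 and Cacna1i kept the call in each. Depth limits genes near the filter, such as Oxtr, and Kl in the PAS knockouts, where it had 2 to 17 counts a library.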
